A study of Mus musculus with 2 samples.

Results

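Retinoid handling in mouse mammary fibroblasts at puberty and in the adult was followed through 9 genes: *Stra6* and *Rbp4* for uptake and transport of retinol, *Crabp1* and *Crabp2* for binding of retinoic acid, *Aldh1a1*, *Aldh1a2* and *Aldh1a3* for synthesis, *Dhrs3* for the return of retinaldehyde to retinol, and *Cyp26b1* for breakdown. The genes were taken by symbol from the 33696 listed genes, and all 9 were present in both libraries. They were measured in cells with at least 500 detected genes, at most 10% mitochondrial transcripts and at least 1 unique molecular identifier (UMI) of *Pdgfra*, a receptor gene that marks fibroblasts. These cells numbered 18878 of 21688 barcodes at puberty and 20999 of 23183 in the adult.

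The libraries were 10x Genomics 3′ single-cell RNA sequencing of stroma sorted from mammary glands of female wildtype C57BL/6 mice. Per the labels, the pubertal mice were 4 weeks old and the adult mice were virgin and 9 weeks old, with 2 females used per condition. The sorted fraction was negative for CD24 and for the lineage markers CD31, CD45 and TER-119, so epithelial, endothelial, immune and red blood cells had been depleted. Each stage had 1 library, both marked replicate 2, and cells of different animals could not be separated within a library. The spread between animals is therefore unknown, no test between stages was possible, and every interval below is a 95% interval for counting error only.

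Retinol circulates bound to Rbp4 and enters cells through the membrane receptor Stra6. Inside the cell retinol is oxidised to retinaldehyde and then, by the Aldh1a enzymes, to retinoic acid, which activates nuclear receptors and controls growth and differentiation of many tissues, the mammary gland among them. Crabp proteins hold retinoic acid in the cytoplasm, Dhrs3 draws retinaldehyde back to retinol, and Cyp26 enzymes oxidise retinoic acid to inactive products.

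Both libraries had been sequenced to similar depth, with a median of 12187 UMIs per *Pdgfra* cell at puberty and 11265 in the adult. *Dcn*, a proteoglycan gene of fibroblasts, was detected in 99.9% and 99.6% of these cells. The 5 epithelial markers summed to 3.16 and 1.12 counts per 1000000 UMIs (CPM), and the 5 mature adipocyte markers to 1.64 and 1.43 CPM. A list of 8 dissociation and heat shock genes summed to 19025 CPM at puberty and 24597 CPM in the adult and was higher in the adult in each of the 5 subsets described below; its part in the stage differences was not tested. Within the list the heat shock genes differed most, with *Hspa1a* at 46.9 and 248 CPM and *Hspa1b* at 36.8 and 295 CPM, and *Fosb* was at 2782 and 2592 CPM. The libraries shared 145 barcodes, 0.669% of the pubertal and 0.625% of the adult barcodes. Over the 8288 genes with a mean of at least 10 CPM, the median log2 ratio of adult to pubertal CPM was 0.12.

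Within the *Pdgfra* cells, 5 subsets were gated by UMIs of genes outside the retinoid pathway. The gates were chosen with earlier results of these data known, so they are not independent of the member genes. Cells with both *Pi16* and *Dpp4*, genes known from progenitor-like fibroblasts, made up 74.1% of the pubertal and 42.2% of the adult cells. Cells with *Gdf10* or *Fmo2* made up 39.5% and 47.9%, and cells with *Thbs4* or *Bmp5* made up 4.91% and 14.8%. Cells with at least 2 UMIs of *Fabp4*, a fatty acid carrier of the adipocyte lineage, accounted for 9.42% and 12.2%. Cells with *Pla2g7*, which encodes a phospholipase, accounted for 2.52% (475 cells) and 21.5% (4521 cells). Adult *Pla2g7* cells were shallower than pubertal ones, with a median of 9154 against 12491 UMIs. The gates could overlap, with 31.1% and 39.7% of cells in several of them, and 3.44% and 8.54% were in none.

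Over all *Pdgfra* cells, 5 of the 9 genes were at least 2-fold higher in the adult library (*Stra6*, *Crabp1*, *Aldh1a2*, *Dhrs3* and *Cyp26b1*), against 8.58% of the 18048 genes with at least 50 UMIs in all. *Aldh1a3* was at least 2-fold lower, as were 4.76% of all genes. *Aldh1a1*, *Rbp4* and *Crabp2* differed by less than 2-fold. Levels are CPM, the UMIs of a gene per 1000000 UMIs summed over the cells; since 3′ counting takes a molecule once whatever its length, CPM were compared between genes without a length correction.

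**Figure D1:**
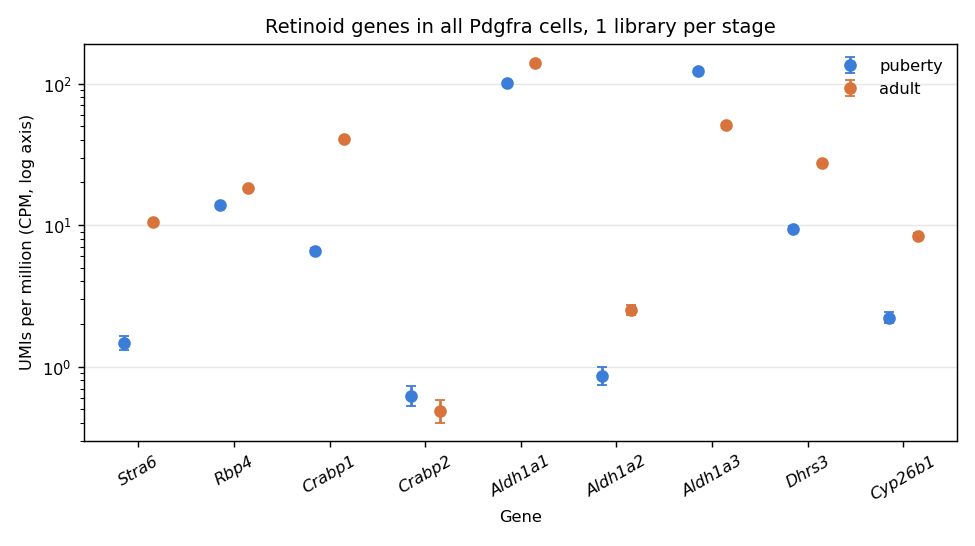
Level of each retinoid gene in all *Pdgfra* cells, in CPM on a log axis, at puberty (blue) and in the adult (orange), with exact Poisson 95% intervals and 1 library per stage. *Aldh1a1* and *Aldh1a3* are the highest at both stages, and *Aldh1a3* lies at 123 CPM at puberty and 51.1 CPM in the adult, while *Crabp1* lies at 6.59 and 40.8 CPM.

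The retinol receptor gene *Stra6* (chromosome 9, 58063793 to 58154004, plus strand, GRCm38) was measured at 1.47 CPM (1.32 to 1.63) at puberty and 10.5 CPM (10.1 to 10.9) in the adult, a ratio of 7.16 (6.40 to 8.03). The cytoplasmic retinoic acid carrier gene *Crabp1* (chromosome 9, 54764748 to 54773110, plus strand) was measured at 6.59 CPM (6.26 to 6.92) and 40.8 CPM (39.97 to 41.6), a ratio of 6.19 (5.87 to 6.53). Both genes were carried by few cells. *Stra6* was detected in 191 pubertal and 1478 adult cells, and *Crabp1* in 289 and 2672, with up to 82 and 97 *Crabp1* UMIs in a cell.

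*Stra6* and *Crabp1* had their highest levels in the same cells, those with *Pla2g7*. In these cells *Stra6* was at 35.6 CPM (31.2 to 40.5) at puberty and 47.5 CPM (45.6 to 49.5) in the adult, and outside them at 0.504 and 1.56 CPM. *Crabp1* was at 159 CPM (149 to 169) and 165 CPM (161 to 168) in *Pla2g7* cells and at 2.27 and 10.7 CPM outside. The *Pla2g7* cells thus held 66.7% of the *Stra6* UMIs and 66.5% of the *Crabp1* UMIs at puberty, and 88.1% and 78.8% in the adult, from 2.75% and 19.5% of all UMIs. These were the only members at least 2-fold higher inside the *Pla2g7* gate than outside it at both stages, as were 4.94% of the 15847 genes tested.

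Within the *Pla2g7* cells the ratio of adult to pubertal level was 1.04 (0.970 to 1.11) for *Crabp1* and 1.33 (1.17 to 1.53) for *Stra6*. The share of thinned *Pla2g7* cells with a UMI, described below, had a ratio of 1.58 (1.25 to 2.02) for *Crabp1* and 1.60 (1.14 to 2.31) for *Stra6*. In *Thbs4* or *Bmp5* cells the ratios of level were 0.960 (0.846 to 1.09) for *Crabp1* and 1.81 (1.37 to 2.42) for *Stra6*. The ratios were larger in other gates: in *Gdf10* or *Fmo2* cells they were 7.34 (6.67 to 8.09) for *Crabp1* and 10.8 (8.70 to 13.5) for *Stra6*, and in *Pi16*+*Dpp4*+ cells 4.16 (3.66 to 4.75) and 5.99 (4.55 to 7.99). Gates that overlap the *Pla2g7* gate contain some of its cells, and the share of those cells was not held fixed in these ratios. In cells of the *Gdf10* or *Fmo2* gate alone, *Crabp1* was at 5.01 CPM at puberty and 19.1 CPM in the adult, a ratio of 3.81 (3.13 to 4.68). In cells of the *Thbs4* or *Bmp5* gate alone it was at 18.0 and 6.18 CPM, a ratio of 0.344 (0.225 to 0.528) from 44 and 50 UMIs. In cells of the *Pla2g7* gate alone it was at 302 and 241 CPM, a ratio of 0.799 (0.731 to 0.875). Over all *Pdgfra* cells, those with *Crabp1* held a mean of 5.39 UMIs of it at puberty and 3.78 in the adult. The intervals treat UMIs as independent, so for *Crabp1* they are too narrow.

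The stretches before the starts of these genes are shown because they were the members whose levels followed each other most closely. They were taken from RefSeq (GRCm38.p6, which is mm10), 250 bases before a start site on the plus strand, for *Crabp1* at chr9:54764498-54764747 and for the first of 4 listed *Stra6* starts at chr9:58128838-58129087, which lies between exons of a longer *Stra6* transcript. Capitals mark GGGCGG on either strand, the core of a GC box.
Crabp1: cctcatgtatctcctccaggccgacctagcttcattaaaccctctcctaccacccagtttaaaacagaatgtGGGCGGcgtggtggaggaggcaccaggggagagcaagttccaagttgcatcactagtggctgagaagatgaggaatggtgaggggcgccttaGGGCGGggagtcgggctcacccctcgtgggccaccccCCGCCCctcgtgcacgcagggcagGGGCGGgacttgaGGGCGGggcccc
Stra6: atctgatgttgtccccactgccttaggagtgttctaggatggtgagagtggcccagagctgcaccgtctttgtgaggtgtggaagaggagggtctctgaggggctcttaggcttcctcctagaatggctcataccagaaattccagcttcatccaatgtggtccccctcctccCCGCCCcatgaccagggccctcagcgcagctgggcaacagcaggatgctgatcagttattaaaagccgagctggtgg
The *Crabp1* stretch held 5 matches and this *Stra6* stretch 1, and 32.7% of the 32851 RefSeq stretches of the same length held at least 1. The half-sites AGGTCA and AGTTCA, known to be bound by retinoic acid receptors as pairs, had no match on either strand in any of the 14 stretches of the 7 members with a RefSeq entry. A further variant, GGGTCA, matched in 1 stretch each of *Aldh1a1* and *Rbp4*. Of all stretches, 14.02% held AGGTCA, 11.8% held AGTTCA and 11.6% held GGGTCA, and the windows say nothing of more distant sites.

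Across 14 summed cell groups, 7 disjoint groups in each library, the log2 levels of *Stra6* and *Crabp1* had a Pearson's r of 0.955. The groups share libraries and differ in size, so r is a description only. Among 8410 genes, those nearest to *Stra6* were *Sbspon* (r = 0.980), *Mmd* (0.966) and *Col25a1* (0.959), and those nearest to *Crabp1* were *Robo2* (0.978), *Vps37b* (0.973) and *Daam2* (0.971).

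*Crabp2* (chromosome 3, 87948693 to 87953372), the paralogue that delivers retinoic acid to nuclear receptors, was near the lower limit of these libraries. It was at 0.625 CPM (0.529 to 0.735) at puberty and 0.485 CPM (0.402 to 0.580) in the adult, a ratio of 0.775 (0.604 to 0.993), from 148 and 120 UMIs. Its highest level was in *Fabp4* cells at both stages, at 1.10 and 0.721 CPM, with intervals that overlapped those of the *Gdf10* or *Fmo2* cells at 0.768 and 0.595 CPM. Binding in adult cells was thus read almost wholly from *Crabp1*. Of the 172 thinned pubertal cells with a binding gene, described below, 134 had *Crabp1* and 38 had *Crabp2*.

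*Rbp4* (chromosome 19, 38116620 to 38125321, minus strand), the plasma carrier of retinol that liver and adipose cells secrete, was at 13.8 CPM (13.4 to 14.3) at puberty and 18.3 CPM (17.7 to 18.8) in the adult, a ratio of 1.32 (1.26 to 1.38). It was highest in *Fabp4* cells at both stages and was the only member at least 2-fold higher inside that gate than outside, as were 2.74% of all genes. The *Fabp4* cells were at 43.7 CPM (41.2 to 46.4) and 33.7 CPM (31.9 to 35.6), against 10.2 and 15.5 CPM in the cells outside. Most *Rbp4* UMIs, 74.2% and 67.1%, were in the larger *Gdf10* or *Fmo2* gate, where the level was 4.00 (3.70 to 4.33) and 1.96 (1.84 to 2.09) times that outside, while *Fabp4* cells held 34.1% and 27.9%. Among cells of 1 gate only, the pubertal level was 48.7 CPM for *Gdf10* or *Fmo2* and 48.4 CPM for *Fabp4*. The mature adipocyte markers summed to 12.2 and 7.56 CPM in *Fabp4* cells, and their part in this level was not tested.

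The stage ratio of *Rbp4* differed in direction between gates. It was 1.98 (1.81 to 2.16) in *Pi16*+*Dpp4*+ cells, from 5.07 to 10.0 CPM, and 0.771 (0.711 to 0.837) in *Fabp4* cells. In *Gdf10* or *Fmo2* cells it was 0.981 (0.930 to 1.04), in *Pla2g7* cells 0.915 (0.755 to 1.12) and in *Thbs4* or *Bmp5* cells 1.20 (1.05 to 1.39). Among cells in 1 gate only, the ratio was 0.590 (0.541 to 0.644) for *Gdf10* or *Fmo2*, from 48.7 to 28.7 CPM. With 1 library per stage these differences could not be tested. The genes nearest to *Rbp4* over the 14 groups were *Tnfrsf1a* (r = 0.933), *Layn* (0.927) and *Rasa3* (0.925).

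**Figure D2:**
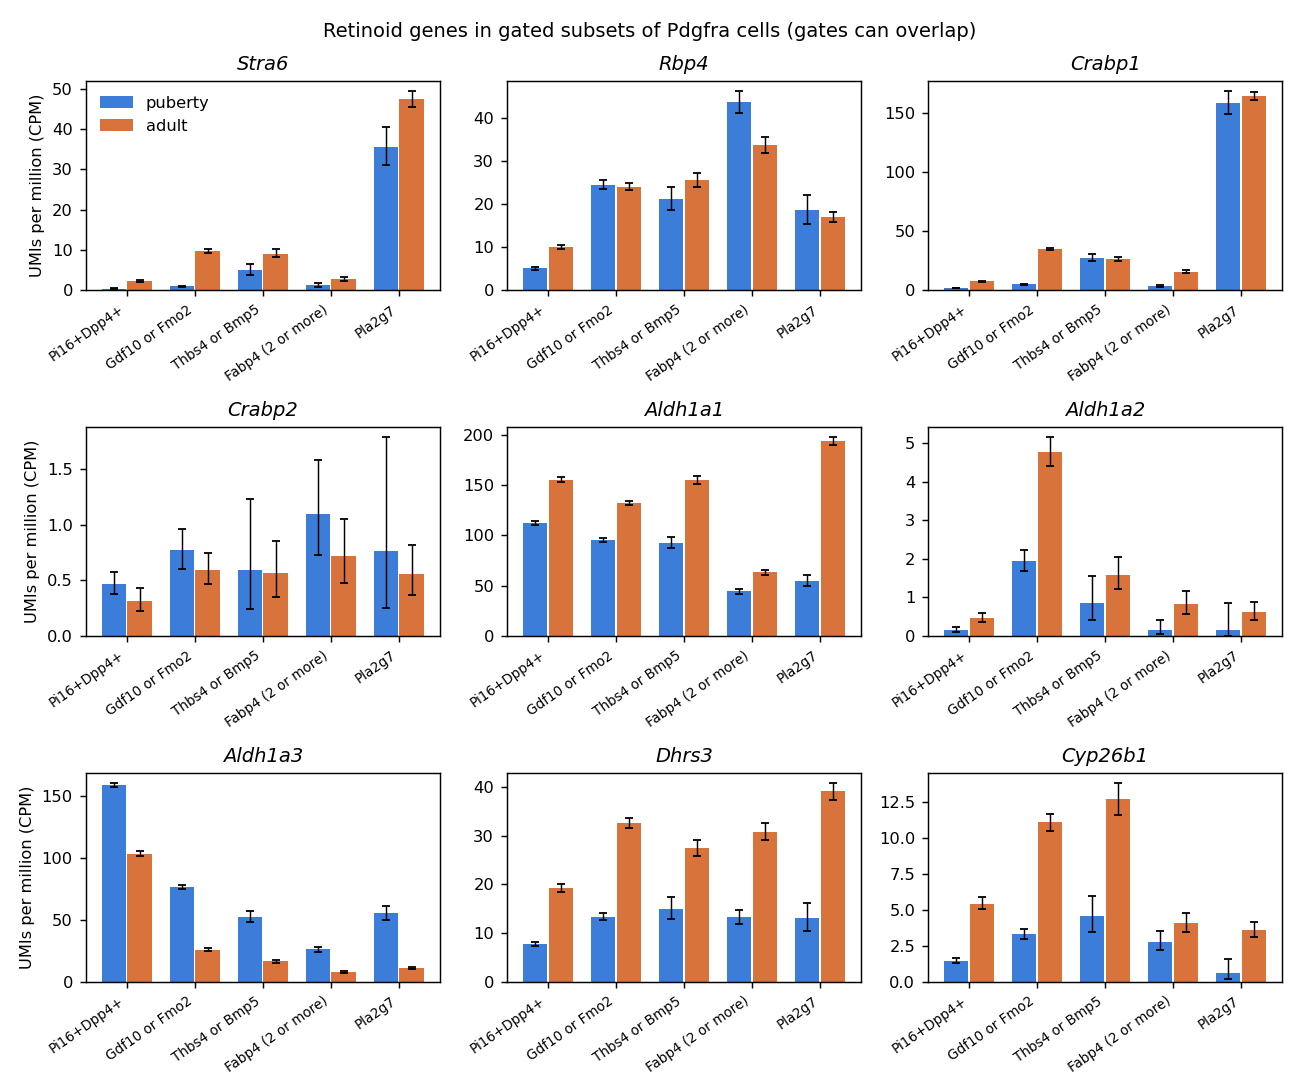
Level of each retinoid gene in the 5 gated subsets, in CPM from 0, at puberty (blue) and in the adult (orange), with exact Poisson 95% intervals; gates overlap and each panel has its own axis. *Stra6* and *Crabp1* peak in *Pla2g7* cells, *Rbp4* in *Fabp4* cells, *Aldh1a2* in *Gdf10* or *Fmo2* cells and *Aldh1a3* in *Pi16*+*Dpp4*+ cells at both stages, while *Aldh1a1* peaks in *Pi16*+*Dpp4*+ cells at puberty (112 CPM) and in *Pla2g7* cells in the adult (194 CPM).

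Of the 3 enzymes that make retinoic acid, *Aldh1a3* and *Aldh1a1* carried nearly all of the UMIs. *Aldh1a3* (chromosome 7, 66390892 to 66427477) was at 123 CPM (122 to 125) at puberty and 51.1 CPM (50.3 to 52.0) in the adult, a ratio of 0.415 (0.406 to 0.424). *Aldh1a1* (chromosome 19, 20492583 to 20643463, plus strand) was at 101 CPM (99.3 to 102) and 140 CPM (139 to 142), a ratio of 1.40 (1.37 to 1.42). *Aldh1a3* therefore made up 54.9% of the summed *Aldh1a* UMIs at puberty and 26.4% in the adult, and *Aldh1a1* made up 44.8% and 72.3%. The sum of all 3 was 225 CPM (223 to 227) and 194 CPM (192 to 196).

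*Aldh1a3* was confined almost entirely to the *Pi16*+*Dpp4*+ cells, which held 99.1% of its UMIs at puberty and 98.8% in the adult, from 76.9% and 48.8% of all UMIs. Its level was 159 CPM (157 to 161) and 103 CPM (102 to 105) inside the gate, and 4.82 and 1.18 CPM outside. It was the only member at least 2-fold higher inside this gate than outside at both stages, as were 4.62% of all genes. The stage ratio inside the gate was 0.651 (0.637 to 0.665). It was 0.828 (0.807 to 0.849) in the cells of this gate alone, from 183 to 152 CPM, and 0.354 (0.341 to 0.368) in cells of several gates, from 98.6 to 34.9 CPM. *Gap43* (r = 0.986), *Ano3* (0.983) and *Car8* (0.980) had the nearest patterns over the 14 groups.

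*Aldh1a1* was spread over all subsets, from 44.4 CPM in *Fabp4* cells to 112 CPM in *Pi16*+*Dpp4*+ cells at puberty, and from 63.3 CPM in *Fabp4* cells to 194 CPM in *Pla2g7* cells in the adult. It was higher in the adult in each gate. The ratio was 1.39 (1.36 to 1.41) in *Pi16*+*Dpp4*+ cells, 1.39 (1.36 to 1.43) in *Gdf10* or *Fmo2* cells, 1.43 (1.33 to 1.53) in *Fabp4* cells and 1.67 (1.57 to 1.78) in *Thbs4* or *Bmp5* cells. In *Pla2g7* cells it was 3.54 (3.18 to 3.94), from 54.9 CPM (49.4 to 60.9) to 194 CPM (190 to 198). In cells of the *Pla2g7* gate alone, 156 at puberty and 1756 in the adult, *Aldh1a1* was at 16.8 and 166 CPM, a ratio of 9.87 (6.94 to 14.6) that rests on 31 pubertal UMIs. In the adult *Pla2g7* cells *Aldh1a1* made up 94.3% of the *Aldh1a* UMIs, against 49.9% at puberty. The nearest genes over the 14 groups were *Ggh* (r = 0.953), *Ephx1* (0.945) and *Dpy19l1* (0.930).

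**Figure D3:**
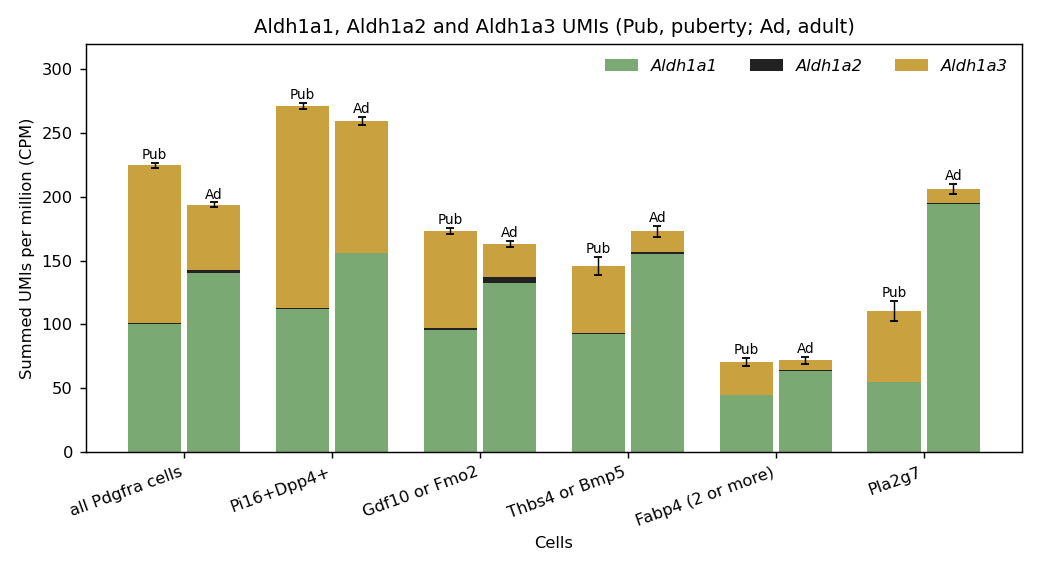
Summed CPM of *Aldh1a1* (green), *Aldh1a2* (black) and *Aldh1a3* (yellow) in all *Pdgfra* cells and in each gate, with the exact Poisson 95% interval of the sum. The yellow part is smaller in the adult in every pair of bars, and the adult *Pla2g7* cells have a sum of 206 CPM against 110 CPM at puberty.

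*Aldh1a2* (chromosome 9, 71215789 to 71296243, plus strand), the enzyme with the leading part in embryonic retinoic acid synthesis, was found in very few cells, 72 at puberty and 140 in the adult. Its level over all cells was 0.862 CPM (0.748 to 0.989) and 2.51 CPM (2.32 to 2.72), a ratio of 2.92 (2.48 to 3.43). The *Gdf10* or *Fmo2* cells held 94.1% and 96.8% of its UMIs, at 1.94 CPM (1.68 to 2.24) and 4.78 CPM (4.403 to 5.17). *Aldh1a2* and *Cyp26b1* were the members at least 2-fold higher inside this gate than outside at both stages, as were 1.35% of all genes. *Cyp26b1* stood at the limit, with ratios of 2.27 (1.90 to 2.72) and then 2.01 (1.83 to 2.20), and was no longer among them when cells above the 99th percentile of detected genes were left out.

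Cells with at least 3 *Aldh1a2* UMIs, 28 at puberty and 69 in the adult, held 73.0% and 85.4% of its UMIs, with up to 21 and 65 in a cell. Their median depth was 12648.5 and 12098 UMIs, and 2 and 9 of them were marked as doublets. A mesothelial marker list, in which *Krt19* gave 16.2 of 16.5 and 12.5 of 13.2 CPM over all *Pdgfra* cells, summed to 0 and 1.15 CPM in these cells and to 7.42 and 3.50 CPM in all cells with an *Aldh1a2* UMI. Named after their values were seen, *Hhip*, a Hedgehog-binding protein gene, was at 348 and 207 CPM in these cells against 12.9 and 6.66 CPM in the other *Pdgfra* cells, and *Gria4*, a glutamate receptor gene, was at 479 and 599 CPM against 37.9 and 44.6 CPM. *Gria4* was also nearest to *Aldh1a2* over the 14 groups (r = 0.919), followed by *Id4* (0.844) and *Arhgdib* (0.844).

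*Dhrs3* (chromosome 4, 144892534 to 144928209, plus strand), a reductase that lowers the supply of retinaldehyde, was at 9.45 CPM (9.06 to 9.85) at puberty and 27.4 CPM (26.8 to 28.1) in the adult, a ratio of 2.90 (2.77 to 3.05). It had no strong preference for a gate. At puberty it lay between 7.83 CPM in *Pi16*+*Dpp4*+ cells and 15.0 CPM in *Thbs4* or *Bmp5* cells, whose interval overlapped those of the *Gdf10* or *Fmo2*, *Fabp4* and *Pla2g7* cells. In the adult it lay between 19.3 CPM in *Pi16*+*Dpp4*+ cells and 39.2 CPM (37.4 to 41.0) in *Pla2g7* cells. The stage ratio was above 1 in every gate, from 1.84 (1.57 to 2.17) in *Thbs4* or *Bmp5* cells to 3.002 (2.41 to 3.78) in *Pla2g7* cells. *Mllt6* (r = 0.953), *Gm56636* (0.920) and *Zscan26* (0.904) were nearest to it over the 14 groups.

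*Cyp26b1* (chromosome 6, 84571414 to 84593908, minus strand), which breaks down retinoic acid, was at 2.22 CPM (2.04 to 2.42) at puberty and 8.36 CPM (8.01 to 8.73) in the adult, a ratio of 3.76 (3.42 to 4.15). Its highest level was in *Thbs4* or *Bmp5* cells, at 4.60 CPM (3.45 to 6.00) and 12.7 CPM (11.6 to 13.9), followed by *Gdf10* or *Fmo2* cells at 3.30 CPM (2.95 to 3.67) and 11.1 CPM (10.5 to 11.7). The intervals of these gates overlapped at both stages. It was lowest in *Pla2g7* cells, the cells in which *Crabp1* and *Stra6* were highest. There it was at 0.614 CPM (0.167 to 1.57) at puberty, from 4 UMIs, and at 3.60 CPM (3.09 to 4.18) in the adult. These intervals overlapped those of pubertal *Pi16*+*Dpp4*+ cells (1.28 to 1.64) and adult *Fabp4* cells (3.47 to 4.79). In cells of the *Gdf10* or *Fmo2* gate alone *Cyp26b1* was at 6.11 and 24.6 CPM, a ratio of 4.02 (3.37 to 4.84). The nearest genes were *Ttc7* (r = 0.924), *S100a4* (0.910) and *Ms4a4d* (0.909).

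Counted by gate, 5 of 9 members with enough UMIs were at least 2-fold higher in the adult in *Pi16*+*Dpp4*+ cells and none was lower, against 7.09% and 3.75% of all genes. In cells of this gate alone, *Stra6* had a ratio of 1.52 (0.677 to 3.31) from 17 and 13 UMIs and *Aldh1a2* had 8 and 3 UMIs, so these 2 calls rested on cells that were also in other gates. In *Gdf10* or *Fmo2* cells 5 of 9 were higher and *Aldh1a3* was lower, against 6.78% and 4.84%. In *Thbs4* or *Bmp5* cells only *Cyp26b1* of 8 members was higher and *Aldh1a3* lower, against 3.48% and 3.49%, and no member was at least 2-fold higher inside that gate than outside at both stages, a position held by 2.37% of all genes. In *Fabp4* cells *Stra6*, *Crabp1* and *Dhrs3* of 8 members were higher and *Aldh1a3* lower, against 4.26% and 3.65%. In *Pla2g7* cells *Aldh1a1*, *Dhrs3* and *Cyp26b1* of 7 members were higher and *Aldh1a3* lower, against 5.36% and 4.66%. The call of *Cyp26b1* there rested on 4 pubertal UMIs. The share of *Pla2g7* cells that were also *Pi16*+*Dpp4*+ was 32.2% at puberty and 11.3% in the adult. *Aldh1a3* had 4 and 19 UMIs in cells of the *Pla2g7* gate alone and 5 and 3 in cells of the *Thbs4* or *Bmp5* gate alone. The highest gate was the same at both stages for 7 of the 9 members, all but *Aldh1a1* and *Dhrs3*. Among cells of exactly 1 gate it was the same for 5. There *Aldh1a1* was highest in *Pi16*+*Dpp4*+ cells at both stages, at 114 and 169 CPM, beside 166 CPM in adult *Pla2g7* cells, while *Rbp4*, *Crabp2* and *Cyp26b1* had different highest gates at the 2 stages.

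To compare cells at equal depth, each cell was thinned to 3000 UMIs, which left out 336 pubertal and 426 adult cells. The share of cells with *Crabp1* was then 0.723% at puberty and 7.02% in the adult (1.53% and 12.7% before thinning), and that with *Stra6* was 0.313% and 2.96% (1.01% and 7.04%). For *Aldh1a3* the shares were 25.5% and 10.1% (51.8% and 20.8%), and for *Aldh1a1* 23.6% and 29.9% (57.7% and 60.4%). For *Rbp4* they were 3.14% and 4.79%, for *Dhrs3* 2.96% and 7.93%, for *Cyp26b1* 0.561% and 1.81%, for *Aldh1a2* 0.178% and 0.394% and for *Crabp2* 0.205% and 0.141%.

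Cells with *Rgs5* and *Notch3* but no *Pdgfra* UMI, a mural cell gate, served as a measure of free RNA, with 159 and 139 cells after thinning and a median of 6067 and 4970 UMIs before it. None of them had *Crabp1*, *Stra6*, *Crabp2* or *Aldh1a2*, which allows shares of up to 2.29% at puberty and 2.62% in the adult. The pubertal shares of these 4 genes in all *Pdgfra* cells lay below that limit and were not told from free RNA by this measure, as did the adult shares of *Aldh1a2* and *Crabp2*; the adult shares of *Crabp1* and *Stra6* lay above it. In pubertal *Pla2g7* cells alone, however, the shares of *Crabp1* and *Stra6* were 15.6% and 7.61%, above the limit. The shares of *Aldh1a1* in the mural gate were 1.26% and 4.32% and those of *Aldh1a3* 1.26% and 0%, and both were below the *Pdgfra* cells. The shares of *Rbp4* were 0.629% and 0.719%, each from 1 cell, and the upper bound of the pubertal share, 3.45%, was above that of the *Pdgfra* cells. *Cyp26b1* was in 1 of the 159 mural cells at puberty (0.629%, 0.0159 to 3.45) and in 1.44% in the adult, too few cells to set a background for it. Its pubertal share differed between gates, at 0.332% (0.243 to 0.443) in *Pi16*+*Dpp4*+ and 1.87% (1.09 to 2.98) in *Thbs4* or *Bmp5* cells. *Dhrs3* was in 11.3% and 10.8%, above the *Pdgfra* cells, so this gate was no background for it.

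By role, 42.6% of the pubertal and 36.6% of the adult *Pdgfra* cells had a UMI of a synthesis gene (*Aldh1a1*, *Aldh1a2* or *Aldh1a3*), 0.928% and 7.16% had a binding gene (*Crabp1* or *Crabp2*) and 0.561% and 1.81% had the breakdown gene *Cyp26b1*. Synthesis genes were most often found in *Pi16*+*Dpp4*+ cells, at 51.4% and 48.6%, and least often in *Fabp4* cells, at 13.5% and 16.9%. Binding genes were most often found in *Pla2g7* cells, at 16.1% (12.9 to 19.7) and 24.8% (23.5 to 26.1). *Cyp26b1* was most often found in *Thbs4* or *Bmp5* cells, at 1.87% (1.09 to 2.98) and 3.72% (3.08 to 4.45), against 0.211% (1 cell) and 0.447% of *Pla2g7* cells.

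**Figure D4:**
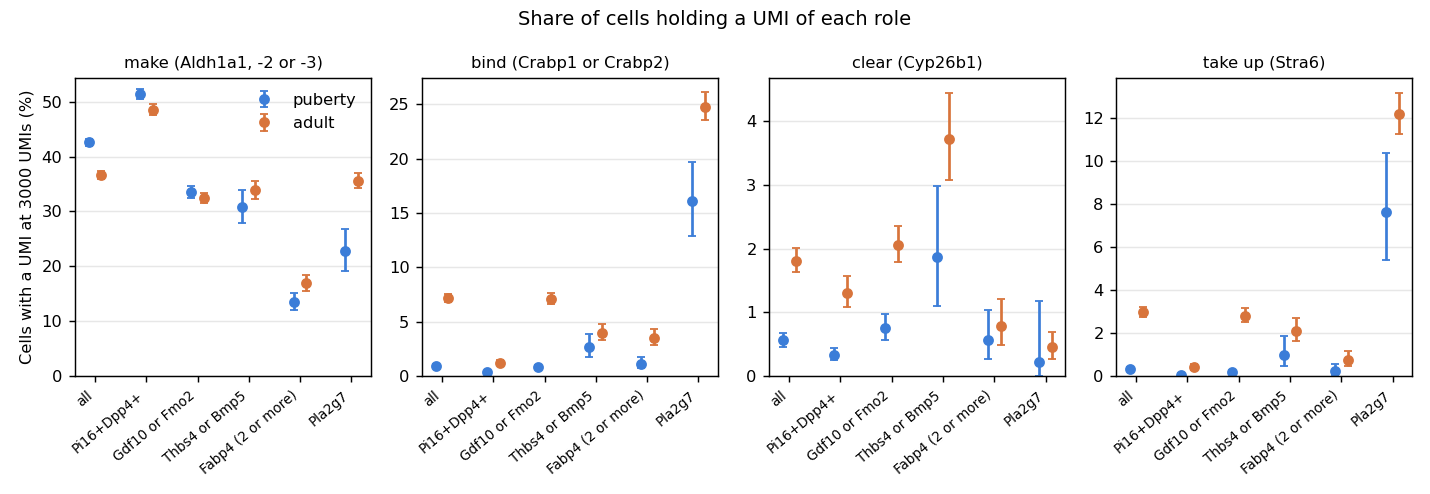
Percent of cells, thinned to 3000 UMIs, that hold a UMI of a synthesis, binding, breakdown or uptake gene, at puberty (blue) and in the adult (orange), with exact binomial 95% intervals. Synthesis genes peak in *Pi16*+*Dpp4*+ cells, binding and uptake genes in *Pla2g7* cells (24.8% and 12.2% in the adult) and *Cyp26b1* in *Thbs4* or *Bmp5* cells (3.72% in the adult).

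The roles also met in the same cells to unequal extent. In the adult, 250 thinned cells held both *Stra6* and *Crabp1*, against 42.8 for the product of their shares, and at puberty 19 against 0.419. Except where *Pla2g7* cells are named, the products in this paragraph were taken over all *Pdgfra* cells. They thus also reflect which gates held each gene. Within *Pla2g7* cells, *Stra6* met *Crabp1* or *Crabp2* in 233 adult cells and in 14 pubertal cells. The products of the shares within that gate were 135 and 5.78. Of the adult cells with *Stra6*, 41.1% also had *Crabp1*. *Crabp1* and *Cyp26b1* were together in 2 adult cells, against 26.2 for the product, and in 2 pubertal cells, against 0.752. *Crabp1* and *Aldh1a3* were together in 13 adult cells, against 145. *Crabp1* and *Aldh1a1* were together in 502 adult cells, against 433, and in 16 pubertal cells, against 31.7. *Aldh1a3* and *Cyp26b1* shared 14 adult cells, against 37.5, and *Aldh1a1* and *Cyp26b1* shared 107, against 112. Each count describes 1 library.

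Because the mix of subsets differed between the libraries, the stage ratios were recomputed over 7 disjoint groups: cells of each gate alone, of several gates and of none. The mix inside the group of several gates was not held fixed. Of its 5877 pubertal and 8345 adult cells, 319 and 2765 had *Pla2g7*, and its *Crabp1* was at 6.80 and 41.4 CPM. With the pubertal shares of UMIs applied to both stages, the ratio of *Crabp1* was 3.19 and that of *Stra6* 3.64. With the groups weighted equally they were 0.991 and 1.10, both close to 1. In that mean the cells of the *Pla2g7* gate alone counted as much as any other group. They held 0.779% of the pubertal and 6.43% of the adult UMIs. *Rbp4* moved to 1.03 and 0.954 and *Aldh1a3* to 0.689 and 0.615, no longer 2-fold apart. For *Dhrs3* the ratios were 2.40 and 2.74, for *Cyp26b1* 3.11 and 2.78, for *Aldh1a2* 2.21 and 2.01 and for *Aldh1a1* 1.47 and 1.76. *Dhrs3* and *Cyp26b1* thus stayed at least 2-fold higher in the adult under either weighting. *Aldh1a2* did so only at the limit, and the weighted ratios had no interval.

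**Figure D5:**
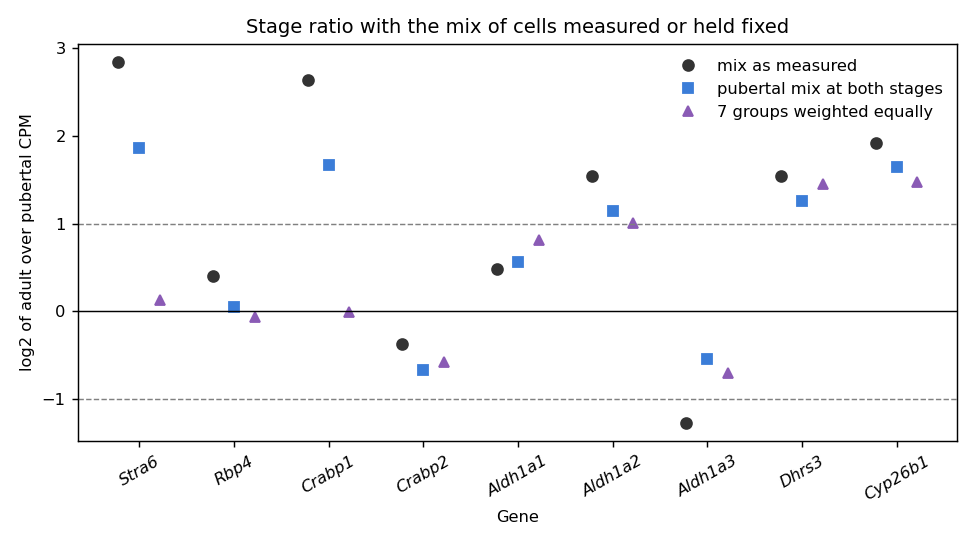
Log2 ratio of adult to pubertal CPM for each retinoid gene with the mix of cells as measured (circles), with the pubertal shares of 7 disjoint groups at both stages (squares) and with these groups weighted equally (triangles). The mix inside the group of several gates is not held fixed. Dashed lines mark 2-fold. *Crabp1* and *Stra6* move from 2.63 and 2.84 to near 0 with equal weights. *Dhrs3* and *Cyp26b1* stay above 1, and *Aldh1a2* ends at 1.01.

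A wider list of retinoid genes was read beside the members. Of 39 listed genes, 32 had at least 50 UMIs. Of these, 2 (*Rbp7* and *Rdh12*, both below 1 CPM) were at least 2-fold higher in the adult, against 8.58% of all genes tested. A further 3 (*Akr1c18*, *Dhrs9* and *Bco1*) were at least 2-fold lower, against 4.76%. For the 22 with at least 10 CPM in a library the median log2 ratio was 0.10. Over all genes with a mean of at least 10 CPM, a slightly different limit, it was 0.12. The breakdown enzymes *Cyp26a1* and *Cyp26c1* had 3 and 10 UMIs at puberty and 1 and 5 in the adult, so *Cyp26b1* was the only member of its family at a measurable level, and *Lrat*, whose enzyme turns retinol into its storage ester, had 2 and 3 UMIs.

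Among the dehydrogenases and reductases of the wider list, *Dhrs9*, a retinol dehydrogenase, was at 117 CPM at puberty and 42.6 CPM in the adult. Its ratio was 0.364 (0.356 to 0.373). Like *Aldh1a3* it was highest in *Pi16*+*Dpp4*+ cells, at 150 and 84.3 CPM. *Rdh10*, the main retinol dehydrogenase of the embryo, was at 39.7 and 31.3 CPM and highest in *Pla2g7* cells, at 77.8 and 45.4 CPM. *Akr1c18*, better known for breaking down progesterone, was at 380 and 102 CPM, a ratio of 0.268 (0.264 to 0.272). *Adh1* was at 30.6 and 56.3 CPM, *Adh7* at 12.2 and 16.7, *Adh5* at 34.0 and 35.4, *Rdh14* at 15.98 and 14.4, *Dhrs4* at 15.1 and 15.98 and *Dhrs7* at 87.0 and 75.2.

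*Cyp1b1*, which can also oxidise retinol, was at 53.0 and 85.0 CPM and highest in *Fabp4* cells, at 133 and 143 CPM. *Bco2*, which cleaves carotenoids, was at 11.2 and 8.73 CPM, and *Dgat1*, which can esterify retinol, at 11.5 and 9.68 CPM. Of the receptors, *Rarg* was at 52.2 and 57.5 CPM, *Rara* at 17.5 and 24.3, *Rarb* at 12.2 and 22.1, *Rxra* at 13.9 and 17.3 and *Rxrb* at 10.4 and 11.3. *Rarb*, a gene that retinoic acid is known to induce, had a ratio of 1.82 (1.74 to 1.90), below 2-fold. The coactivator *Ncoa1* was at 150 and 239 CPM, and the corepressors *Ncor1* and *Nrip1* were at 240 and 306, and 236 and 208 CPM.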

How the data were processed

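The labels name the 10x Genomics Chromium GEM-X 3′ kit. The authors deposited raw UMI counts per gene and barcode, with no normalization, made with Cell Ranger 8.0.1 against mm10. The study's methods name other versions and a slightly older pubertal age, and the labels were followed. The annotation release behind the counts was not given in the sources used here.

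Counts were summed over the cells of each library and scaled to CPM. Intervals were exact Poisson for CPM, Clopper-Pearson for shares and conditional binomial for ratios, each at 95%. Those for CPM and for its ratios treat UMIs as independent. They are too narrow for genes whose UMIs clump in cells, such as *Crabp1*. With 1 library per stage no test was run. A difference of at least 2-fold was counted for genes with at least 50 UMIs over both sides. For shares, cells were thinned to 3000 UMIs without replacement. Doublets were not removed in the main values; Scrublet in scanpy 1.11.5 marked 8.67% and 9.27% of barcodes for an alternative. TMM factors came from edgeR 4.0.16 in R 4.3.3. The interval and thinning code was tested on simulated data. No column of other samples was present.

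The 9 genes, the gates and the wider gene list were chosen with earlier results of these data known. The text names all 9, the genes of the wider list with at least 10 CPM in a library (2 of them are not reported here), and for each member reaching 200 UMIs in both libraries the 3 genes with the highest Pearson's r of log2(CPM + 1) over 14 disjoint group sums, among genes with a mean of at least 10 CPM and without the gate genes. Gene positions and start-site stretches are from RefSeq, GRCm38.p6.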

Additional observations from a re-analysis of the deposited data

Results flagged for a closer look

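The stage ratio of *Rbp4* lay on opposite sides of 1 in different gates, with intervals that left out 1. It was 1.98 in *Pi16*+*Dpp4*+ cells and 0.771 in *Fabp4* cells, and among cells of 1 gate only it was 2.13 in *Pla2g7* cells, from 12 pubertal UMIs, and 0.590 in *Gdf10* or *Fmo2* cells. *Crabp1* showed the same kind of split among cells of 1 gate only. Its ratio was 7.86 in *Pi16*+*Dpp4*+ cells, from 0.248 CPM (28 UMIs) to 1.95 CPM (111 UMIs). In *Thbs4* or *Bmp5* cells it was 0.344, from 18.0 CPM (44 UMIs) to 6.18 CPM (50 UMIs). The pubertal 0.248 CPM was no higher than in mural cells without *Pdgfra*, at 0.255 CPM (0.00647 to 1.42), and was not told from free RNA. The differences between gates in *Rbp4* and *Crabp1* were not tested, since each stage had 1 library, and their intervals treat UMIs as independent.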

How the results depend on the processing

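The count of members at least 2-fold apart between stages was 6 of 9. It was 3 with the 7 groups weighted equally, 5 with the pubertal mix and 6 in each of the other 10 settings (TMM scaling, mean of each cell's CPM, doublets removed, other limits on genes, mitochondrial UMIs, *Pdgfra* or UMIs, and a 1.5-fold cut). With equal weights the log2 ratio of *Crabp1* moved from 2.63 to -0.013, and that of *Rbp4* from 0.40 to -0.07. Both changed sign, but the new values were small and had no interval. Of 90 recomputed stage ratios 88 kept their direction, and 59 stayed within the counting interval. Of 44 recomputed ratios of shares, all kept their direction and 32 stayed within the interval; counting cells with at least 2 UMIs moved *Cyp26b1* from 3.23 to 7.66 and *Aldh1a2* from 2.21 to 3.91. The count of members with the same highest gate at both stages was 7, and 5 in cells of exactly 1 gate. No paired analysis was possible because the groups share fewer than 2 replicate numbers. Without a second library per stage, no replicate could be left out.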

Other observations

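Cells without *Pdgfra* that carried markers of other types gave values for sources outside the fibroblasts. Cells with mature adipocyte markers had the highest *Rbp4* of all gates, 188 CPM over 4 cells at puberty and 965 CPM over 8 cells in the adult. *Dhrs3* in mural cells (579 at puberty, 357 in the adult) was at 47.0 and 71.7 CPM, above the 9.45 and 27.4 CPM of the *Pdgfra* cells. Cells with Schwann cell markers (60 at puberty, 52 in the adult) had *Aldh1a3* at 35.4 CPM, from 8 UMIs in 7 cells, and 159 CPM, from 59 UMIs in 5 cells. *Aldh1a1* was at 84.1 CPM there at puberty, from 19 UMIs in 9 cells, and at 1 UMI in the adult. No *Stra6* UMI was found in the mural, epithelial, endothelial, Schwann, muscle or adipocyte gates at either stage. The upper bound of its level was 0.942 and 1.71 CPM in the mural gates, below the 1.47 and 10.5 CPM of the *Pdgfra* cells. In the adult the bound was also below that level in the epithelial (6.07 CPM), muscle (7.26 CPM) and Schwann (9.95 CPM) gates. The remaining gates listed here were too small to compare, as their bounds lay above the *Pdgfra* cells. These bounds were 16.3 CPM or more at puberty, and 18.4 and 111 CPM in the adult endothelial and adipocyte gates.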
